A study of Mus musculus with 40 samples.

Results

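The early response genes Egr1, Egr2, Egr3, Egr4, Nr4a1, Nr4a2, Nr4a3, Ier2, Ier3 and Zfp36 were taken by symbol from the 24062 genes of the count table, and all 10 were found. RNA-Seq was performed on primary mouse embryonic fibroblasts (MEFs), connective tissue cells explanted from 13.5-day embryos (days post coitum) and used at passage 3. The embryos were wild type (WT), heterozygous (Het) or knockout (KO) for Sall2, which encodes a zinc finger transcription factor. MEFs of each genotype were grown untreated (control) or with 1 μM doxorubicin, an anthracycline that intercalates into DNA and poisons topoisomerase II, for 16 h. All embryos shared a mixed background of C57BL/6J and 129P2OlaHsd, and the Sall2 allele was targeted in 129P2 embryonic stem cells, so that KO embryos also carry 129P2 sequence beside the targeted locus. Control libraries came from 1 WT, 1 Het and 3 KO embryos, and the 10 libraries were made from 40 sequenced samples, 4 FASTQ files each. The doxorubicin library of KO 3 was identical to that of KO 2 in every one of 24062 genes, so both entered once, as KO 2, which left 5 control and 4 doxorubicin libraries. By counts of Y-linked genes in control, KO 1 and KO 3 were male (3806 and 6397). WT, Het and KO 2 were female (1, 3 and 1). The duplicated library had 0 such counts, which matches KO 2 and not KO 3.

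Early response genes are switched on within minutes of a growth factor, stress or depolarization signal, without new protein synthesis, mainly through the kinase cascade that ends on serum response factor at CArG boxes and on CREB at cyclic AMP response elements. The Egr genes encode zinc finger transcription factors that bind GC-rich sites, and the Nr4a genes encode orphan nuclear receptors of the Nur77 family. Ier2 encodes a small nuclear protein, Ier3 a regulator of cell survival, and Zfp36 (tristetraprolin) binds AU-rich elements and speeds the decay of mRNAs such as that of Tnf.

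Promoter sequences are shown for the Nr4a genes and Egr4, which had the largest fold changes or share a family, and for Zfp36 and Ier3, which moved in opposite directions. RefSeq promoters (GRCm38.p6, 250 bases before to 50 after a start site) were found for 7 of the 10 genes, namely Nr4a1, Nr4a2, Nr4a3, Egr2, Egr4, Ier3 and Zfp36. Each is printed 5′ to 3′ on the strand of its gene, with capitals for the half-site of the cyclic AMP response element (TGACG) and for the CArG box, each searched on both strands.
Nr4a1 (chr15:101266596-101266895, plus strand): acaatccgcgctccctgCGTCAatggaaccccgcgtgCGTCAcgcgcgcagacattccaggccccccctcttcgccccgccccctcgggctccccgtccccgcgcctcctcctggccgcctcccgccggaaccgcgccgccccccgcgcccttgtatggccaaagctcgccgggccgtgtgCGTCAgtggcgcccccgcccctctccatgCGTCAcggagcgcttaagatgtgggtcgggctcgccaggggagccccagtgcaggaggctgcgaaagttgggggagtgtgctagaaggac
Nr4a2 (chr2:57123954-57124253, minus strand): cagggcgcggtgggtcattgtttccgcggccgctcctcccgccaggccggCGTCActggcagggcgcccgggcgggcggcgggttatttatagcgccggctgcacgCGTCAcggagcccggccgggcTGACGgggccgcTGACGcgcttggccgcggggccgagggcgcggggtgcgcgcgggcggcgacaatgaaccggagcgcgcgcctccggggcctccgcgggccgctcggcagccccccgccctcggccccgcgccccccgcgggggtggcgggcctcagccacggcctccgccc
Nr4a3 (chr4:48045055-48045354, plus strand): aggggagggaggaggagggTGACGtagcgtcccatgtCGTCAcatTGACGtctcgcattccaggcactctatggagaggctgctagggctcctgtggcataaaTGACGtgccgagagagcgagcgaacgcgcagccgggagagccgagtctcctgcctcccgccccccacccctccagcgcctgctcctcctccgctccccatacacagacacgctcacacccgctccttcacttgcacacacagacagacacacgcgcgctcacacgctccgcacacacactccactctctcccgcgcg
Egr4 (chr6:85513540-85513839, minus strand): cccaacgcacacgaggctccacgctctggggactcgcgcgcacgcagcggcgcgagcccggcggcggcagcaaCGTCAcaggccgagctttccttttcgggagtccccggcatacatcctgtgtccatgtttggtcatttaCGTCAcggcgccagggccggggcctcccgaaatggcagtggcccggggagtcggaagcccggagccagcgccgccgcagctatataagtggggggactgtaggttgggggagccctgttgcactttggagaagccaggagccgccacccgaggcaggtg
Zfp36 (chr7:28379179-28379478, minus strand): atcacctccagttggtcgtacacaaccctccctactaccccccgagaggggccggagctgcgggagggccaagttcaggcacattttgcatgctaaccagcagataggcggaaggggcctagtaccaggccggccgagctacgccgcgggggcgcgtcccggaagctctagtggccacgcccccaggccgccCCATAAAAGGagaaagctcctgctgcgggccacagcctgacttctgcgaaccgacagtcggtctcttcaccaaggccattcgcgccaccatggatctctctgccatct
Ier3 (chr17:35821463-35821762, plus strand): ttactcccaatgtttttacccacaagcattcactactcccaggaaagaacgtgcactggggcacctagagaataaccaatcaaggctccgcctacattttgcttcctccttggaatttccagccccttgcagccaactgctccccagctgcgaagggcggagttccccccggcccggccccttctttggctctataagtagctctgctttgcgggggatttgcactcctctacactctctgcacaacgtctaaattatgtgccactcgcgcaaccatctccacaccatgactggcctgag
The TGACG half-site was found in at least 1 promoter of 5 of these 7 genes (Egr2, Egr4, Nr4a1, Nr4a2 and Nr4a3) and in 20.8% of all 32851 promoters of this length. The 7 genes had 11 promoters, since Egr2 alone had several, some of them overlapping. A count by gene thus gives Egr2 more chances of a match than the shares of single promoters beside it. Nr4a1, Nr4a2 and Nr4a3 each held 4 such half-sites and Egr4 held 2. The full element TGACGTCA, which contains the half-site, was in none of the promoters of the 7 genes and in 1.79% of all promoters. A CArG box was found in Zfp36, starting 58 bases before the start site, and in promoters of Egr2, and in 1.63% of all promoters. No match to either of these motifs lay in the Ier3 window. The Egr site GCGNGGGCG was found in Nr4a1, Nr4a2 and Zfp36 (5.55% of all promoters) and the SP1 site GGGCGG, which can overlap it, in 6 of the 7 genes (35.7%). All motifs named here were searched on both strands. An NF-kB site, searched by its consensus, was found in Egr2, Egr4, Ier3 and Nr4a1 (6.93%). TATAAA was found in Nr4a2 on the opposite strand (TTTATA as printed, starting 164 bases before the start site, 13.6%). The ETS site CCGGAAG was found in Zfp36 (8.86%). The AP-1 site TGANTCA (7.81%), the Nr4a site AAAGGTCA (1.51%) and the p53 half-site (8.36%) were in none of them. These matches describe letters in the window and were not tested as binding sites.

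In GRCm38 (mm10), the build used for the alignment, the GENCODE annotation places Nr4a2 at chr2:57106830-57124003, Nr4a3 at chr4:48045153-48086447, Egr4 at chr6:85511121-85513589, Zfp36 at chr7:28376784-28380253, Ier2 at chr8:84661331-84662852, Egr2 at chr10:67535475-67542188, Egr3 at chr14:70077203-70082614, Nr4a1 at chr15:101254269-101274795, Ier3 at chr17:35821684-35822923 and Egr1 on chromosome 18. Egr3 lies on the chromosome of Sall2. Counts were taken over exons, and a gene annotated on the opposite strand (Gm44710) overlaps Zfp36 alone among the 10 genes.

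Library totals lay between 15560728 and 24122414 counts. Levels are given as CPM, library-scaled counts after TMM normalization. Sall2 itself was at 37.0 CPM for WT, 24.3 for Het and 19.1 to 23.8 in the 3 KO control libraries, and with doxorubicin at 9.34 for WT, 8.32 for Het and 3.71 and 4.23 in KO. KO libraries were thus below WT in both treatments, though the difference was not called in either, with reads of the gene remaining, and counts per gene do not show which part of Sall2 they cover. None of the 10 fibroblast markers was at or under 3 counts throughout a treatment. The control libraries of Het and KO 3 stood apart. Their summed fibroblast markers were at 20530 and 16541 CPM against 77227 to 94344 CPM in WT, KO 1 and KO 2, with 9 of 10 markers lower in both. In the same pair of libraries the sum of 10 interferon response genes was 2020 and 2191 CPM against 44.5 to 61.1 CPM, with all 10 genes higher in both. The sum of 7 macrophage markers was 491 and 377 CPM against 103 to 179 CPM, with Ptprc, Cd68, Lyz2 and Cd14 higher in both and Mrc1 lower, and the sum of 5 muscle markers was 74.5 and 29.5 CPM against 5.23 to 6.65 CPM. With doxorubicin, where KO 3 has no library of its own, Het had the lowest fibroblast sum, 23430 against 47539 to 59648 CPM, and the highest interferon sum, 1416 against 262.7 to 320.01 CPM. In bulk libraries, fewer cells of a type and less RNA per cell cannot be told apart.

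Doxorubicin was associated with higher mRNA of 7 of the 10 genes (Egr2, Egr3, Egr4, Nr4a1, Nr4a2, Nr4a3 and Zfp36) and with lower mRNA of Ier3. Egr4 moved most, from 5 reads or fewer per control library to 771 or more, followed by Nr4a3, Nr4a2 and Egr3. Egr1 and Ier2 did not pass the threshold. The test was the quasi-likelihood test of edgeR with genotype as a term, and a gene was called at a Benjamini-Hochberg adjusted p (FDR) under 0.01. In this comparison 42.1% of the 14883 genes tested were called, 21.9% higher and 20.2% lower, so that calls were common among all genes. The median log2 fold change was 1.31 over the 10 genes and -0.02 over all genes tested. On CPM, the doxorubicin libraries lay wholly above the control libraries for 8 of the 10 genes and wholly below for Ier3. Among 13873 genes with a mean of at least 1 CPM, groups that did not overlap made up 46.7%, with 22.3% higher and 24.4% lower. Marker sums also differed between the treatments. In WT, KO 1 and KO 2 the fibroblast sum went from 77227 to 94344 CPM in control to 47539 to 59648 CPM with doxorubicin, with 1 of 10 markers (Pdgfrb) called lower, and the interferon sum from 44.5 to 61.1 CPM to 262.7 to 320.01 CPM, with none of 10 genes called over all libraries. Of the other markers tested, Cd68 (macrophage), Cldn5 and Emcn (endothelial) and Foxd3 (neural crest) were called higher, and Csf1r, Sox10 and Map2 lower. Cldn5 was at 0.0 to 0.0503 CPM in control and 0.609 to 1.84 CPM with doxorubicin. It passed the filter on low counts through the doxorubicin libraries alone, so its call is no separate evidence. None of the 3 muscle markers tested was called (the lowest edgeR FDR was 0.0516, for Myh3). The part of these differences in the levels of the 10 genes was not tested.

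**Figure D1:**
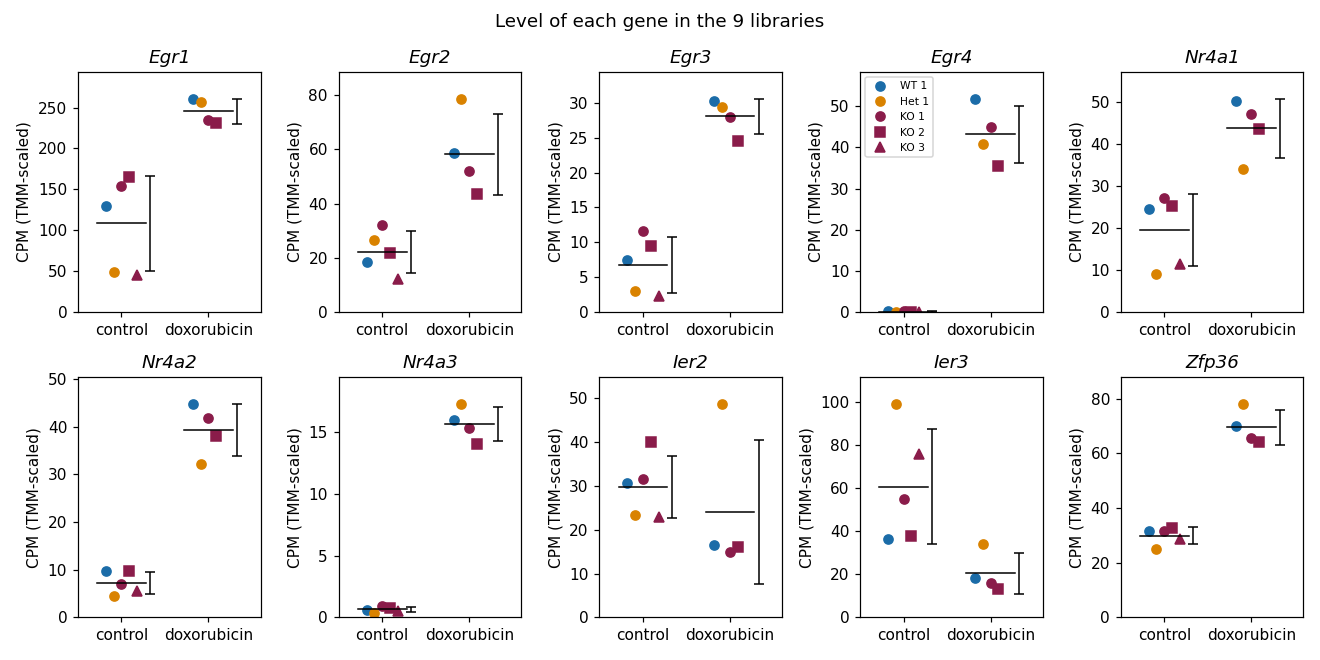
Level of each gene in TMM-scaled CPM (vertical axis, linear, from 0) in the 5 control and 4 doxorubicin libraries, with colour for genotype and shape for embryo number. Horizontal lines are means and bars are SD. Doxorubicin libraries sit above all control libraries for each gene but Ier2, which overlaps, and Ier3, which is lower.

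Without treatment, Egr4 was read 4 times for WT, 3 times for Het and 5, 0 and 2 times for KO 1, KO 2 and KO 3. With doxorubicin the counts were 1043 for WT, 803 for Het, 805 for KO 1 and 771 for KO 2, or 51.8, 40.7, 44.9 and 35.4 CPM. Control libraries were thus at or near the limit of detection, since 3 counts correspond to 0.124 to 0.165 CPM there, while treated libraries were at a moderate level. The edgeR log2 fold change was 8.26 ± 0.42 (SE, FDR = 7.28e-06). Since it rests on few control counts, the pooled counts were also compared, 14 in the controls and 3422 with doxorubicin, and the ratio per total count was 336 (95% exact interval 199.8 to 615, which covers counting error only). Egr4 passed the filter on low counts through the doxorubicin libraries alone.

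Egr3 was at 7.44 CPM for WT, 3.02 for Het and 11.6, 9.43 and 2.25 in KO 1, KO 2 and KO 3 without treatment. With doxorubicin it was at 30.3 CPM for WT, 29.4 for Het, 28.03 in KO 1 and 24.5 in KO 2. On TMM-scaled CPM the treated libraries were close together, whereas Het and KO 3 were the lowest of the controls. The log2 fold change of Egr3 was 2.16 ± 0.47 (SE, edgeR FDR = 0.00429). Egr2, which also guides myelination and hindbrain patterning, rose from 12.3 to 32.1 CPM over the controls to 43.5 to 78.7 CPM, a log2 fold change of 1.35 ± 0.27 (SE, edgeR FDR = 0.00294), and its highest treated library was Het.

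Egr1, a widely used marker of early responses, was at 129 CPM for WT, 49.0 for Het and 154, 165 and 44.8 in KO 1, KO 2 and KO 3 without treatment. With doxorubicin it was at 260.3 CPM for WT, 257 for Het, 235 in KO 1 and 230.5 in KO 2. On TMM-scaled CPM the treated libraries spanned a ratio of 1.13 from lowest to highest and the controls one of 3.68, with Het and KO 3 lowest. On library totals the treated libraries were further apart, with Het highest (5070 counts in 15560728 against 5239 in 21350978 in WT). Its log2 fold change was 1.28 ± 0.41 (SE, edgeR FDR = 0.0266), higher in 4 of 4 embryos but not past the threshold. On the same libraries it was called by DESeq2 (1.32, FDR = 0.00316) and with library totals in place of TMM (1.39, edgeR FDR = 0.00861), so that its place beside the threshold depended on the tool and the scaling. Without Het and KO 3, a comparison added after the data were seen, the fold change was smaller (0.69) and was called (edgeR FDR = 0.000335).

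The 3 Nr4a genes all rose. Nr4a3 (Nor1) was read 13 times for WT, 9 for Het and 19, 14 and 11 in KO 1, KO 2 and KO 3 without treatment, and 321 for WT, 341 for Het, 276 in KO 1 and 306 in KO 2 with doxorubicin. On the CPM scale these were 0.372 to 0.955 against 14.03 to 17.3, and the log2 fold change was 4.64 ± 0.30 (SE, edgeR FDR = 1.76e-05). Among the 10 genes, Nr4a3 was second to Egr4 in fold and, like it, was near the limit of detection without treatment.

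Nr4a2 (Nurr1), required for midbrain dopaminergic neurons, was at 9.64 CPM for WT, 4.59 for Het and 7.09, 9.65 and 5.44 in KO 1, KO 2 and KO 3 without treatment. With doxorubicin it was at 44.8 CPM for WT, 32.2 for Het, 41.9 in KO 1 and 38.1 in KO 2. Its log2 fold change was 2.47 ± 0.20 (SE, edgeR FDR = 4.06e-05), and per embryo it lay between 1.97 and 2.79. Nr4a1 (Nur77) had the smallest fold change of the 3. It was at 24.5 CPM for WT, 9.13 for Het and 27.3, 25.4 and 11.4 in KO 1, KO 2 and KO 3 without treatment, and at 50.3 for WT, 34.1 for Het, 47.3 in KO 1 and 43.7 in KO 2 with doxorubicin. The log2 fold change of Nr4a1 was 1.26 ± 0.28 (SE, edgeR FDR = 0.00463), with Het lowest in both treatments.

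Zfp36 had the smallest spread of the 10 genes over the control libraries. It was at 31.5 CPM for WT, 25.2 for Het and 31.4, 32.9 and 28.7 in KO 1, KO 2 and KO 3 without treatment, and at 70.2 for WT, 78.1 for Het, 65.5 in KO 1 and 64.2 in KO 2 with doxorubicin. The SD was 10.2% of the mean over the controls and 9.03% over the treated libraries, and the log2 fold change was 1.22 ± 0.14 (SE, edgeR FDR = 0.000168). Of 12 mRNAs listed as targets of the Zfp36 protein, such as Tnf, Il6 and Vegfa, 10 were tested and their edgeR FDRs lay between 0.0457 (Ccl7) and 0.918, above the threshold, with a median log2 fold change of -0.51.

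Ier3 fell. It was at 36.2 CPM for WT, 99.1 for Het and 54.7, 37.5 and 75.9 in KO 1, KO 2 and KO 3 without treatment. With doxorubicin it was at 18.4 CPM for WT, 34.2 for Het, 16.1 in KO 1 and 13.2 in KO 2. Every embryo with both treatments was lower with doxorubicin, by 0.97 to 1.76 on the log2 scale, and the log2 fold change was -1.62 ± 0.26 (SE, edgeR FDR = 0.000916).

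Ier2 differed in direction between embryos. It was at 30.7 CPM for WT, 23.4 for Het and 31.5, 40.0 and 22.8 in KO 1, KO 2 and KO 3 without treatment. With doxorubicin it was at 16.4 CPM for WT, 48.6 for Het, 14.9 in KO 1 and 16.0 in KO 2. The treated Het library was thus above every other library, and the other 3 treated libraries were below every control. The log2 fold change over all libraries was -0.54 ± 0.37 (SE, edgeR FDR = 0.239). Without the Het libraries it was -0.99 and was called (edgeR FDR = 0.00851), and without Het and KO 3 it was -1.11 (edgeR FDR = 3.10e-05).

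**Figure D2:**
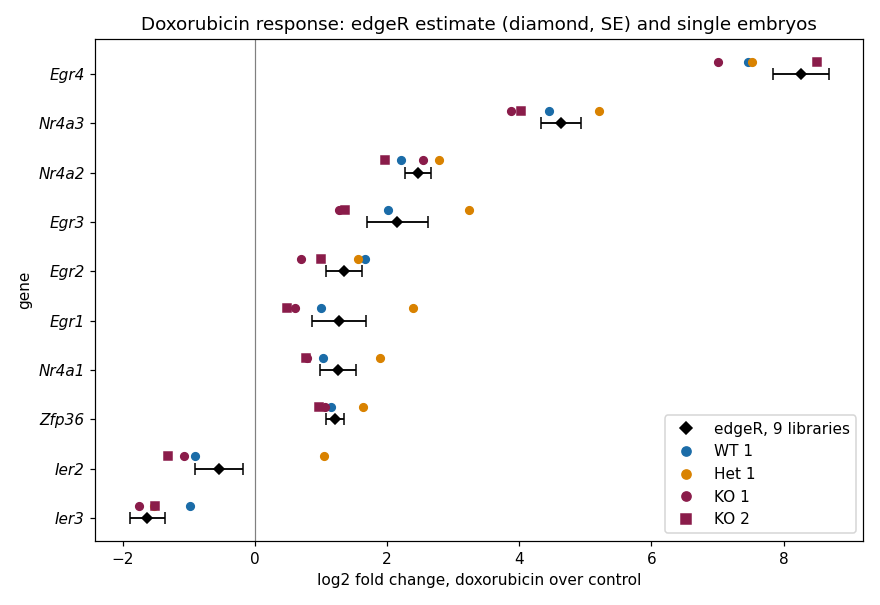
Log2 fold change of doxorubicin over control for each gene (horizontal axis). Black diamonds with bars are the edgeR estimate and its SE over 9 libraries, and coloured points are the 4 embryos with both treatments. Points of the 7 genes called higher and of Egr1 lie to the right of 0 in all 4 embryos, Ier3 lies to the left in all 4, and Ier2 is to the right of 0 in Het alone.

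Calls of Egr4, Nr4a2, Nr4a3 and Zfp36 held in each of the 16 alternatives run. The alternatives included DESeq2, other scalings and each embryo left out in turn. Not all of them could test a call. The looser FDR threshold reused the main fit, so it could neither remove a call nor turn a direction. Another setting counted the identical library again, and another paired it with KO 3, whose Y-linked counts it does not match. None of these settings is a separate check of the calls. The remaining calls, of Egr2, Egr3, Nr4a1 and Ier3, depended on the libraries and, for Nr4a1, also on the model. DESeq2 and the other scalings lost none of them. DESeq2 and library totals each called 9, with Egr1 added, and a model of treatment without genotype called 7, without Nr4a1 (1.17, edgeR FDR = 0.0128). Leaving out WT removed Egr2, Egr3 and Nr4a1, leaving out KO 2 removed the same 3 genes, leaving out Het removed them and added Ier2, and leaving out KO 1 removed Egr3, Nr4a1 and Ier3, so that 5, 5, 6 and 5 genes were called in turn. Without KO 3 there were 9 calls, with Egr1 added, and without Het and KO 3 there were 10, where the genes called in the whole table also increased from 6266 to 9923. Within KO libraries alone, 4 genes were called among 1911 in all. Over the 16 alternatives the log2 fold change ran from 1.10 to 1.52 for Egr2, 1.54 to 2.48 for Egr3 and 0.87 to 1.41 for Nr4a1, and from -1.94 to -1.44 for Ier3. No alternative turned the direction of any of the 10 genes.

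Divided by exon length, so that genes can be compared, Ier3 had the highest level without treatment, 53.6 ± 23.7 CPM per kb (SD, n = 5), and Egr1 the next, 24.2 ± 12.9. Ier2 followed at 19.5 ± 4.61 CPM per kb. The ranges of these neighbours overlapped. Zfp36 (8.62), Egr2 (6.53) and Nr4a1 (5.57 CPM per kb) also overlapped one another and lay below Ier2 in all 5 control libraries. The exon length used for Zfp36, 3470 bases, is its whole annotated span, and the counts used another annotation. Its level per kb, here and with doxorubicin, may thus be understated. Nr4a2 (1.79) and Egr3 (1.53 CPM per kb) formed the next overlapping pair. Nr4a3 (0.108) and Egr4 (0.0615 CPM per kb) were lowest, and their ranges overlapped.

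With doxorubicin, Egr1 was the highest, at 54.8 ± 3.40 CPM per kb (SD, n = 4), and its range did not overlap that of any gene below it. Egr4 moved from the last to the second place, at 20.1 ± 3.24 CPM per kb, and its range overlapped those of Zfp36 (20.03), Ier3 (18.1), Egr2 (17.1) and Ier2 (15.8 CPM per kb). It was above Zfp36 in 2 of the 4 treated libraries, so the second place depends on the length used for Zfp36. Egr4 was above Ier2 in 3 of the 4 treated libraries and below it in Het. Without division by exon length Egr4 was at rank 5. Nr4a1 (12.5) and Nr4a2 (9.67 CPM per kb) were followed by Egr3 (6.37) and Nr4a3 (2.62 CPM per kb), and the ranges of these last 2 overlapped with none of their neighbours. Within families, Egr4 made up 0.0 to 0.297% of the summed Egr level per kb in the controls and 17.9 to 22.7% with doxorubicin. Nr4a1 made up 68.6 to 80.3% of the summed Nr4a level per kb in the controls and 47.3 to 51.5% with doxorubicin, while Nr4a3 went from 1.12 to 1.77% to 9.50 to 14.07%.

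**Figure D3:**
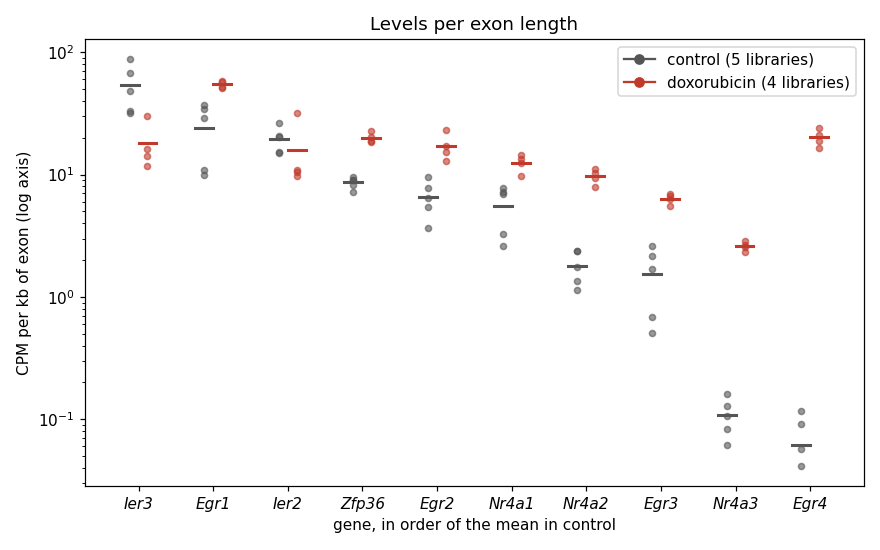
Levels in CPM per kb of exon (vertical axis, logarithmic) for each gene, ordered by the mean in control. Grey points are the control libraries and red points the doxorubicin libraries, and short lines are means; the KO 2 control library, with 0 counts of Egr4, cannot be drawn on this axis. Egr4 goes from the lowest mean to the second highest, which is close to that of Zfp36.

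Among the control libraries, Het and KO 3 were below all of WT, KO 1 and KO 2 for 7 of the 10 genes (Egr1, Egr3, Nr4a1, Nr4a2, Nr4a3, Ier2 and Zfp36) and above them for Ier3. Relative to the median of those 3 libraries, Egr1 was at 0.317 in Het and 0.29 in KO 3, Egr3 at 0.32 and 0.239, and Nr4a1 at 0.359 and 0.449. Ier3 was at 2.64 and 2.02. The 7 depend on the scaling, since TMM factors were 1.24 in Het and 1.22 in KO 3 against 0.839 to 0.847 in the others. On library totals Het and KO 3 stayed below for Egr1, Egr3 and Nr4a1 and above for Ier3. For Ier2, Nr4a2, Nr4a3 and Zfp36 they were not both below. Zfp36 had 609 and 639 counts in totals of 19520477 and 18236276, a higher share than in WT (643 in 24122414). On TMM-scaled CPM, among all 13873 genes with a mean of at least 1 CPM, 39.2% were lower and 37.5% were higher in both Het and KO 3. These are the libraries with the low fibroblast and high interferon, macrophage and muscle sums given above, and the part of those differences in the levels of the 10 genes was not tested. After doxorubicin, on TMM-scaled CPM, the treated Het library was within 1.13 times of the others for Egr1, and for Egr3, at 29.4 CPM, it lay between WT and KO 1. These positions also depend on the scaling, since the TMM factor of treated Het was 1.27 against 0.919 to 1.01 in the other treated libraries. On library totals treated Het was the highest treated library for both genes (for Egr3, 579 counts in 15560728 against 610 in 21350978 in WT). On TMM-scaled CPM treated Het was still below the other treated libraries for Nr4a1 (34.1 against 43.7 to 50.3 CPM) and Nr4a2 (32.2 against 38.1 to 44.8 CPM). For Ier3 (34.2 against 13.2 to 18.4 CPM) it was still above them. On library totals it stayed above for Ier3 and only narrowly below for Nr4a1. For Nr4a2 it was then above both KO libraries (635 counts in 15560728 against 752 in 19527783 in KO 1).

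**Figure D4:**
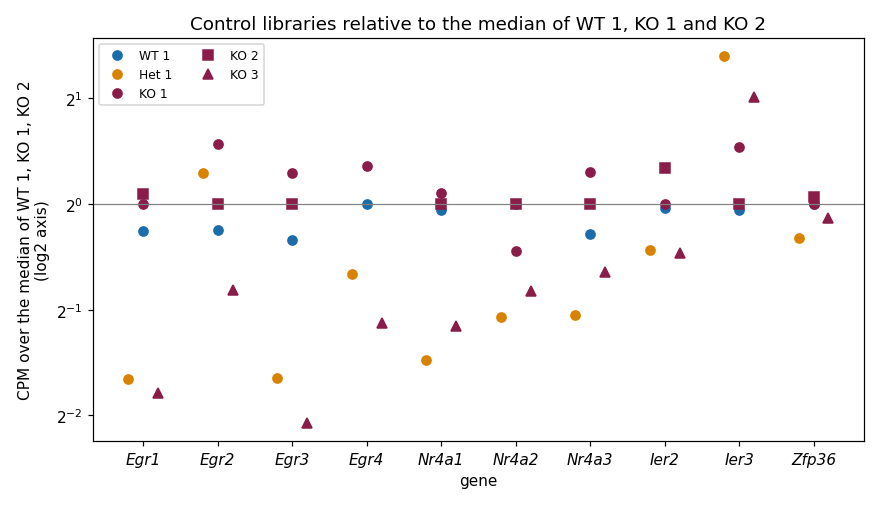
Each control library's CPM divided by the median of WT 1, KO 1 and KO 2 (vertical axis, log2 scale) for the 10 genes, with colour for genotype and shape for embryo number. The KO 2 library, with 0 counts of Egr4, is not drawn for that gene. On TMM-scaled CPM, Het 1 and KO 3 lie below the other libraries for 7 genes and above them for Ier3. On library totals both stay below for Egr1, Egr3 and Nr4a1 alone.

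Whether these genes differed between KO and WT was asked within each treatment. WT was female and KO held both sexes, so these contrasts and the KO spread include a sex difference, whose part was not tested. For Egr3, on the chromosome of Sall2, loss of Sall2 and linked 129P2 sequence cannot be told apart. WT had 1 library in each treatment, so that the spread came from the KO libraries alone, and a miss of the threshold says little: Sall2, the targeted gene, was itself not called between KO and WT in control (-0.81 ± 0.32, log2, SE, edgeR FDR = 1.00) or with doxorubicin (-1.24 ± 0.30, log2, SE, edgeR FDR = 0.0187). In control, none of the 9 genes tested was called between KO and WT in edgeR (Egr4 had too few counts), none had an unadjusted p under 0.05, and DESeq2 called none. Of all 14470 genes tested, 0.0% were called, with 10 at an unadjusted p under 0.05. The log2 differences of KO from WT lay between -0.36 for Nr4a2 and 0.65 for Ier3, with SEs up to 0.95. The 3 KO libraries of Egr1 were at 121 ± 66.5 CPM (SD, n = 3), a spread wide enough to take in the single WT library at 129 CPM.

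With doxorubicin, all 10 genes had lower estimates in KO than in WT, by 0.10 to 0.38 on the log2 scale, but none was called by edgeR or DESeq2 and none had an unadjusted p under 0.05. The 10 estimates share the single WT library, so their common direction is not 10 separate observations. In this comparison 0.197% of 15256 genes were called, 0.118% higher and 0.0787% lower. Egr4 had the largest difference, -0.38 ± 0.19 (SE, edgeR FDR = 1.00), with 51.8 CPM in WT and 40.1 ± 6.72 in KO (SD, n = 2). In a single fit of all libraries the Egr4 difference was -0.37 ± 0.67 (SE). The difference of the doxorubicin response between KO and WT was called for none of the 10 genes (edgeR FDR = 1.00 for each, 0.0% of 15905 genes called, 41 at an unadjusted p under 0.05), and none was called by DESeq2. The largest difference of responses was that of Ier3, -0.95 ± 0.60 (SE), and the smallest that of Nr4a1, 0.05 ± 0.74. With the embryo as a block, which pairs the libraries of an embryo, 7 genes of the whole table were called and none of the 10, the nearest being Egr2 (-0.86, edgeR FDR = 0.257).

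Het and WT have 1 embryo each, so the spread in their comparison came from KO. In control, none of the 10 genes was called by edgeR or DESeq2, and 1, Ier3, had an unadjusted p under 0.05. In all, 0.0% of 16656 genes were called, with 769 at an unadjusted p under 0.05, while DESeq2 called 3 genes. Ier3 was higher in Het by 1.41 ± 0.51 (log2, SE, edgeR FDR = 0.535), and Nr4a1 and Egr1 were lower, by -1.46 ± 0.64 and -1.44 ± 0.89. Without KO 3 in the fit, 4 of the genes were called, with Egr1 (-1.44), Egr3 (-1.33) and Nr4a1 (-1.46) lower and Ier3 (1.42) higher in Het, but so were 3242 genes in the whole table, compared with 63 and 50 without KO 1 or KO 2. The call thus depended on whether KO 3, which stands apart in the same way as Het, contributed to the spread.

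With doxorubicin, none of the 10 genes was called between Het and WT by edgeR or DESeq2, among 0.0% of 16656 genes in edgeR, with 843 genes at an unadjusted p under 0.05 and 1 gene called by DESeq2. Ier2 had the largest difference, 1.50 ± 0.47 (log2, SE, edgeR FDR = 0.728). It was called without KO 3 (edgeR FDR = 0.00333), where 1583 genes were called in all. The difference of the doxorubicin response between Het and WT, a test added after the data were seen, was 1.93 ± 0.65 for Ier2 (SE, unadjusted p = 0.0255 and FDR = 1.00 in edgeR) and was called for none of the 10 genes, among 0.0% of 16656 genes, with 270 at an unadjusted p under 0.05.

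**Figure D5:**
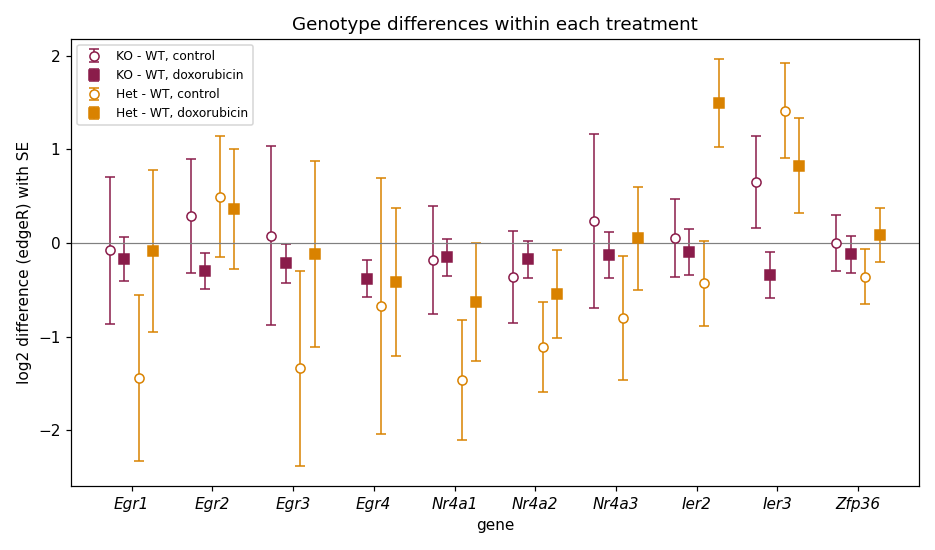
Log2 difference of KO or Het from WT for each gene (vertical axis), with open circles for control and filled squares for doxorubicin. Bars are SE from edgeR, and Egr4 was not tested between KO and WT in control. None of the differences was called, and Ier2 in Het with doxorubicin (1.50) and Ier3 in Het without treatment (1.41) are the 2 highest estimates.

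For each gene, the genes with the most similar pattern were found by the root mean square (RMS) difference of log2 CPM over the 9 libraries, each gene centred on its mean, among 13873 genes. Nearest to Egr4 were Sox3 (RMS difference 0.325), Slc18a3 (0.374) and Hcn4 (0.476), a neural transcription factor, the vesicular acetylcholine transporter and a pacemaker ion channel. Sox3 was at 0.0 to 0.101 CPM in the controls and 27.0 to 35.9 CPM with doxorubicin. For Nr4a3 the nearest were Wnt6 (0.235), the AP-1 gene Fosb (0.264) and the estrogen receptor gene Esr2 (0.268). Fosb went from between 2.29 and 6.13 CPM to between 69.8 and 93.0 CPM.

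Nearest to Nr4a2 were Pdk4 (0.142), a kinase that inhibits pyruvate dehydrogenase, Sowahc (0.166) and the deubiquitinase gene Otud1 (0.193). For Nr4a1 they included Ticrr (0.0913) and the kinase gene Sgk1 (0.154), and Egr1 was at rank 57. For Egr1 they were Mtcl1 (0.187), Nkx3-2 (0.201) and Fzd5 (0.219), with Nr4a1 at rank 7 (0.246). Egr3 was nearest to Klf5 (0.234), Id4 (0.287) and Fzd4 (0.295), and Egr2 to Lfng (0.23), Adcy1 (0.24) and Serinc5 (0.245). Zfp36 had the smallest RMS difference of all, to Zbtb44 (0.047), followed by Cep85 (0.0868). The measure is not scaled to a gene's own variation, which was 0.617 (RMS around its mean) for Zfp36 and 3.84 for Egr4. Ier3 was nearest to Snx11 (0.213), Trmu (0.214) and Tmem68 (0.224), which fell with it, and Ier2 to Thsd1 (0.151), Ccdc97 (0.165) and Tmem67 (0.175), whose highest library with doxorubicin was above their highest control. None of the 3 nearest genes of any gene was itself one of the 10. Likeness over 9 libraries that share treatments and embryos is a description only.

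Of 42 genes of this kind outside the 10, 10 rose, 10 fell and 22 were not called with doxorubicin (median log2 fold change -0.18), beside 21.9% higher and 20.2% lower among all genes tested, so that the share called was near that of all genes. Those that rose included Dusp2, a nuclear phosphatase of ERK (4.98), Fosb (4.34), Arc, a cytoskeletal gene of neurons (3.70), the GTPase gene Gem (2.88) and Fos (2.87 on the log2 scale). Among those that fell were Ctgf (-3.35) and Cyr61 (-3.20), matricellular genes driven by YAP and serum response factor, Klf6 (-1.91) and Myc (-1.18 on the log2 scale).

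Of 32 upstream kinases, receptors and transcription factors, 3 rose, 12 fell and 17 were not called, with a median log2 fold change of -0.54, beside 42.1% called among all genes (21.9% higher and 20.2% lower). The kinase gene Rps6ka5 (MSK1) rose by 1.38 ± 0.28 (log2, SE, edgeR FDR = 0.00312), Rps6ka1 by 1.25 and Hras by 0.85. The receptor gene Pdgfrb had the largest decrease, -2.80 ± 0.34 (log2, SE, edgeR FDR = 0.000230), and Braf (-1.72), Mkl1 (-1.36), Atf1 (-1.30) and Creb1 (-0.65) were also lower. Of 11 partners and relatives tested, 1 rose and 5 fell, beside the same 21.9% and 20.2% of all genes. Nab2 and Nab1, corepressors that bind Egr proteins, were among those that fell, by -2.06 ± 0.31 and -0.88 ± 0.14 (log2, SE, edgeR FDR = 0.000699 and 0.00104). Wt1, which encodes a zinc finger protein that binds sites like those of Egr1, rose by 1.40 ± 0.22 (log2, SE, edgeR FDR = 0.000878). Of 12 p53 target genes, Pmaip1 (2.21) and Plk3 (1.62) rose, Phlda3 fell by 1.43 on the log2 scale, and 9 were not called, beside 42.1% called among all genes.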

How the data were processed

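Counts per gene were analysed for 24062 genes in 10 libraries, of which 9 were distinct. For each culture the authors combined its FASTQ files, ran HISAT2 against mm10, sorted with Picard, and deposited the raw counts that HTSeq (union mode, iGenomes annotation) assigned to genes; the strand setting is not given in the sources used here. RNA was depleted of ribosomal RNA before library preparation.

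Groups came from the labels, and replicate numbers were taken as embryo numbers. The pairing of control and doxorubicin libraries rests on these numbers. As a check, the KO 1 minus KO 2 differences in control and with doxorubicin correlated over 14883 genes with r = 0.385. Where nothing states separate cultures, p-values measure the spread between these libraries.

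Libraries were scaled with TMM after the filterByExpr filter on low counts. Comparisons used the quasi-likelihood test of edgeR 4.0.16 (two-sided, R 4.3.3) on the whole table with Benjamini-Hochberg adjustment at 0.01, tested first on simulated data. Alternatives were DESeq2 1.42.0, library totals, no filter, totals without Rn45s, an FDR of 0.05, RUVg with edgeR's exact test, the embryo as a block and libraries left out. SEs of fold changes were taken from the F statistic. CPM per kb used exon lengths of GENCODE M21, and log2 CPM a prior count of 2. Named genes are the 10 genes, Sall2, genes of fixed lists that passed the threshold or were highest in level, and the 3 genes nearest in pattern, of which some are not reported here. The genes and lists were chosen with earlier results of these data known.

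Totals of 15560728 to 24122414 counts make 3 counts equal to 0.124 to 0.193 CPM; such limits cover counting error only, as PCR copies were not marked.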

Additional observations from a re-analysis of the deposited data

Results flagged for a closer look

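Ier2 with doxorubicin was flagged because the Het library, at 48.6 CPM, lay far from the other 3 treated libraries, at 14.9 to 16.4 CPM. The gap to the nearest of them was 0.955 of the whole range, above the 95% critical value of Dixon's test for 4 samples. It was the single library flagged in 20 groups examined (10 genes in each treatment), and chance flags about 1 in 20. Ier2 was also flagged because its response to doxorubicin was positive in Het (1.05 on the log2 scale) and negative in WT (-0.90) and in both KO embryos (-1.07 and -1.32). Between Het and WT the difference of responses was tested and was not called (edgeR FDR = 1.00), and between Het and KO it was not tested. The treated Het library also had the highest sums of interferon genes and macrophage markers (1416 and 524 CPM, against up to 320.01 and 128 CPM in the others), and their part in the level of Ier2 was not tested.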

How the results depend on the processing

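No alternative turned the direction of any of the 10 genes for doxorubicin against control, where 8 were called. The looser FDR threshold reused the main fit and could not have turned a direction. With the embryo as a block, 8820 genes and 8 of the 10 were called, with no call changed among the 10. With the identical library taken as KO 3 in the block, 5986 genes and 9 of the 10 were called, with Egr1 added (1.59, edgeR FDR = 0.00485). That block joins a control library with 6397 Y-linked counts to a treated library with 0. It therefore does not pair libraries of a single embryo, and its Egr1 call is not a check of the main result. Without division by exon length, Ier3 was at rank 2 of the 10 in control and Egr4 at rank 5 with doxorubicin. Genes called in the whole table numbered 1911 (4 of the 10) within KO alone and 9923 without Het 1 and KO 3. With an embryo left out, they ranged from 2809 to 8971, with 5 to 9 of the 10.

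For KO against WT in control, RUVg gave 163 genes, none of the 10, and leaving out a KO embryo gave 0 to 47. With doxorubicin, DESeq2 gave 5 genes, library totals 16, an FDR of 0.05 gave 46 and the single fit of all libraries 0, with 0 to 2 without a KO embryo. For the difference of responses between KO and WT, the block gave 7 genes, none of the 10, and leaving out a KO embryo 0 to 13. For Het against WT, DESeq2 gave 3 genes in control and 1 with doxorubicin, and leaving out a KO embryo gave 50 to 3242 and 9 to 1583, with 0 to 4 and 0 to 1 of the 10.

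Estimates that changed sign were called in no case. For KO against WT in control, Zfp36 was at 0.15 with library totals, 0.0013 without Rn45s and 0.032 with RUVg, and without a KO embryo in turn the estimates ran from -0.35 to 0.32 for Egr1, -0.091 to 0.58 for Egr2, -0.34 to 0.52 for Egr3, -0.40 to 0.12 for Nr4a1, -0.15 to 0.24 for Ier2 and -0.041 to 0.050 for Zfp36. For the difference of responses, Nr4a1 was at -0.016 with library totals and -0.28 with the block, and without a KO embryo the ranges were -0.49 to 0.18 for Egr1, -0.73 to 0.047 for Egr3, -0.044 to 1.34 for Egr4 and -0.28 to 0.21 for Nr4a1. For Het against WT with library totals, Ier2 and Zfp36 were at 0.16 and 0.23 in control, and Egr1, Egr3 and Egr4 at 0.41, 0.38 and 0.079 with doxorubicin, where Egr1 ran from -0.085 to 0.0067 without a KO embryo. Library totals shifted the median of all genes by 0.59 and 0.49 there, by 0.17 for KO against WT in control and by -0.16 for the difference of responses.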
